A study of Mus musculus with 35 samples.

Results

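The let-7 and miR-98 family was followed in the livers of mice given a single dose of the mutagen N-ethyl-N-nitrosourea (ENU). Its members were the 9 assays of a real-time PCR array that carry the name let-7 with a letter, without star forms, or the name miR-98: mmu-let-7a, mmu-let-7b, mmu-let-7c, mmu-let-7d, mmu-let-7e, mmu-let-7f, mmu-let-7g, mmu-let-7i and mmu-miR-98. They were 9 of 376 miRNA assays. They were chosen by name, not by a measured value, although earlier results of these data were known.

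The 35 animals were female Big Blue transgenic mice, 6 months old at injection, and each gave 1 liver and 1 array. Livers of later days came from older mice, and no control was taken after day 30. ENU was injected intraperitoneally at 120 mg/kg body weight, and the livers were taken at post-treatment day (PTD) 1, 3, 7 or 15 from 5 mice each and at PTD 30 or 120 from 4 mice each. The 7 controls received the vehicle dimethylsulfoxide (DMSO). By the labels, 3 controls were taken on day 1 and 4 on day 30, while the study's methods describe this split the other way round.

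The let-7 miRNAs were found as timing genes of nematode development and are conserved across animals. Mature let-7 accumulates as cells differentiate, the RNA-binding protein Lin28 blocks its maturation in immature cells, and the messengers it represses include those of Ras proteins, Myc and Hmga2. For this reason the family is described as a brake on proliferation, and adult liver is a tissue rich in it. ENU is an alkylating agent that damages DNA, and the study asked how miRNAs of the liver change with time after a single exposure.

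The members share the seed, the stretch from base 2 to base 8 that pairs with target messengers, and they differ in the rest of the molecule. The 9 mature sequences of the 5′ arm are shown because the assays have to tell them apart by these few bases. All are 22 bases long, are given 5′ to 3′ as listed by RefSeq for GRCm38.p6, and have the seed in capitals.

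mmu-let-7a: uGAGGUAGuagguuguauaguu
mmu-let-7b: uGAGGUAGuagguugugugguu
mmu-let-7c: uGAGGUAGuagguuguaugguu
mmu-let-7d: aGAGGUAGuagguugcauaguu
mmu-let-7e: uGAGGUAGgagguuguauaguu
mmu-let-7f: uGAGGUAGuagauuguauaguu
mmu-let-7g: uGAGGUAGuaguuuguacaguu
mmu-let-7i: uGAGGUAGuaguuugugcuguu
mmu-miR-98: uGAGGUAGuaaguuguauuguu

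All 9 carried the seed GAGGUAG. Positions are counted from 1 at the 5′ end, with the base of let-7a first. Single changes set let-7f (G12A), let-7c (A19G) and let-7e (U9G) apart from let-7a. let-7b differed by A17G and A19G, let-7d by U1A and U16C, let-7g by G12U and U18C, and miR-98 by G11A and A19U. let-7i was the most distant from let-7a, with the 4 changes G12U, A17G, U18C and A19U. Over the 36 pairs of members, 4 pairs differed by 1 base and the pair most unlike, let-7d and let-7i, by 6 bases. How far each assay also detects a neighbour that differs by 1 base was not tested here, so values of such pairs carry that uncertainty.

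The members come from 12 precursor genes in RefSeq (GRCm38.p6). Mirlet7a-1 (chr13:48538179-48538272), Mirlet7f-1 (chr13:48537829-48537917) and Mirlet7d (chr13:48536012-48536114) lie on the minus strand with 261 and 1714 bases between them. Mirlet7c-2 (chr15:85706603-85706697) and Mirlet7b (chr15:85707319-85707403) lie 621 bases apart on the plus strand, inside the long noncoding RNA gene Lncppara. Mirlet7f-2 (chrX:151912346-151912428) and Mir98 (chrX:151913214-151913321) lie 785 bases apart on the plus strand, inside the ubiquitin ligase gene Huwe1. Mirlet7a-2 (chr9:41536716-41536811) lies inside Mir100hg, 5211 bases from Mir100, Mirlet7c-1 (chr16:77599657-77599750) lies 656 bases from Mir99a, and Mirlet7e (chr17:17830352-17830444) lies between Mir99b and Mir125a inside Spaca6. Mirlet7g (chr9:106178840-106178927) lies inside Wdr82, and Mirlet7i (chr10:122985640-122985724, minus strand) lies inside no other annotated gene. Since let-7a, let-7c and let-7f each have 2 genes with the same mature sequence, their assays cannot tell which gene was used.

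The threshold cycle (Ct) is the PCR cycle at which fluorescence crosses a fixed line, so a lower Ct stands for more RNA. Levels are given as -ΔCt, the mean Ct of 4 reference RNAs (U6, snoRNA142, snoRNA202 and snoRNA251) minus the Ct of the miRNA in that array. On this log2 scale a step of 1 is a 2-fold difference. The members were abundant: their mean Ct over the 35 arrays ran from 17.4 for let-7f, rank 6 of 376, to 23.1 for miR-98, rank 65. The 15 wells with no Ct, in 11 arrays, held none of the members. The hepatocyte miRNAs miR-122, miR-192 and miR-194 had mean Ct values from 14.5 to 17.2, as the labelled tissue would give. Arrays were grouped into 3 periods by the run months in the files. February and March were joined as period 1, April was period 2 and May period 3. Period 1 held the 3 controls labelled day 1 and 4 of the 5 arrays of PTD 1. It also held all arrays of PTDs 3, 7 and 15. Period 2 held 2 controls labelled day 30, the other array of PTD 1 and all arrays of PTDs 30 and 120. Period 3 held the other 2 controls. The Ct of the first reverse transcription (RT) control well minus that of the second is called the RT difference. Within period 1 it ran from -0.26 to -0.20 in the controls and from -0.28 to -0.12 at PTD 1. It ran from -0.29 to 0.17 at PTD 3, -0.02 to 0.18 at PTD 7 and -0.03 to 0.21 at PTD 15. In 3 arrays, namely PTD 1 replicate 4, PTD 3 replicate 1 and PTD 120 replicate 3, the Ct of snoRNA202 lay 3.04 to 3.48 cycles below that of snoRNA251, against at most 1.85 cycles in the other 32 arrays.

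In the controls, let-7f was the highest member and miR-98 the lowest. The mean -ΔCt over the 7 controls was 4.51 ± 1.03 (SD) for let-7f, 3.05 ± 0.98 for let-7g, 3.02 ± 0.70 for let-7c, 2.82 ± 0.79 for let-7a, 2.75 ± 0.56 for let-7d and 2.72 ± 0.48 for let-7b. Below these came let-7e at 1.25 ± 0.61, let-7i at 0.20 ± 0.67 and miR-98 at -1.21 ± 0.95. The order is that of the assays, since their amplification efficiencies are unknown.

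Within arrays, 4 of the 8 steps in that order exceeded their spread. let-7f lay above let-7g by 1.45 ± 0.14, let-7b above let-7e by 1.47 ± 0.47, let-7e above let-7i by 1.05 ± 0.38 and let-7i above miR-98 by 1.41 ± 0.36 (SD of the difference within arrays). Each of these steps had the same direction in 7 of 7 arrays, with an exact sign-flip permutation p of 0.0156, the smallest that 7 arrays can give, and an adjusted p of 0.0312 over the 8 steps. The other 4 steps, among let-7g, let-7c, let-7a, let-7d and let-7b, measured from 0.03 to 0.20 with exact permutation p from 0.0781 to 0.906. The order of these 5 turned with the label of the controls. With day 1 on the label, let-7b had the highest mean of the 5 at 2.36 and let-7a the lowest at 2.00. With day 30, let-7g had the highest at 3.81 and let-7b the lowest at 3.00. Within either label alone no step can pass, since the smallest exact p is 0.25 with 3 arrays and 0.125 with 4.

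**Figure D1:**
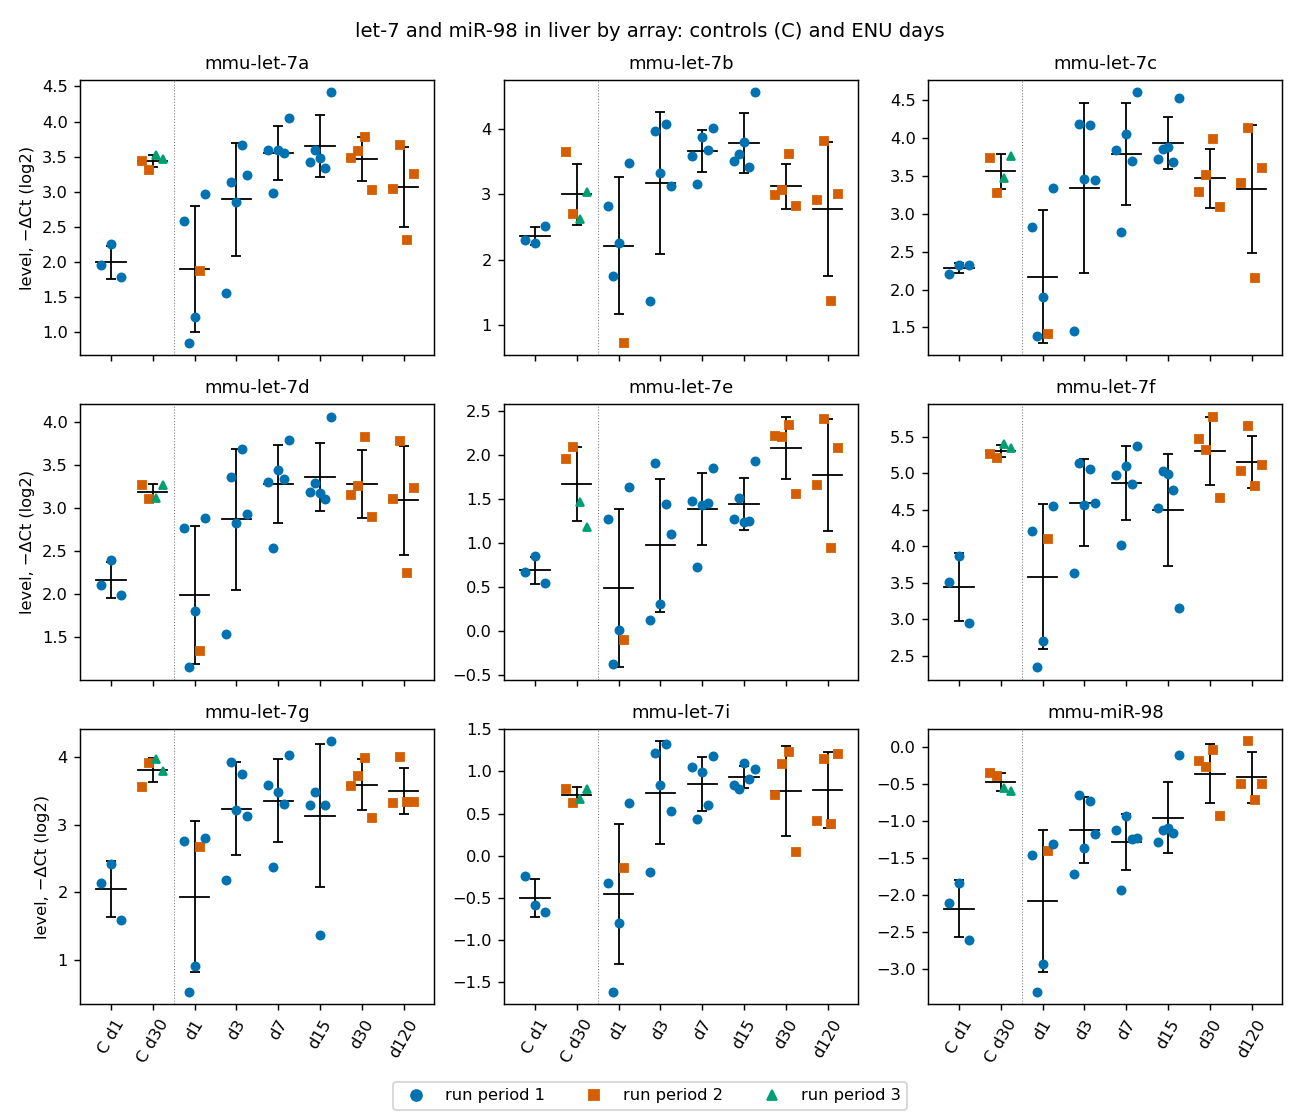
Level of each of the 9 members (-ΔCt, log2 scale) in every array, by group: controls (C) by the day on their label, then ENU by day after treatment. Points are arrays, coloured and shaped by run period, with the group mean and SD as lines. The controls labelled day 1 lie below those labelled day 30 for every member, and of the ENU groups PTD 1 has the lowest mean for every member.

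The controls themselves differed between labels. The values of let-7f were 3.51, 3.87 and 2.95 in the controls labelled day 1 and 5.26, 5.21, 5.40 and 5.34 in those labelled day 30. Those of miR-98 were -2.11, -1.85 and -2.61 against -0.36, -0.39, -0.55 and -0.60. let-7b came closest to overlap, with 2.31, 2.26 and 2.51 against 3.65, 2.70, 2.62 and 3.03. All 9 members were higher in every control labelled day 30 than in any labelled day 1, where 47.9% of the 376 miRNAs stood apart in that direction.

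A differentially expressed miRNA (DEM) was called at p under 0.01 in limma, not adjusted, with a fold change above 2. Between the control labels 7 members were DEMs, all higher at day 30, against 28.5% of all miRNAs. They ran from let-7f (log2 fold change 1.86, SE 0.27, limma adjusted p = 0.00707) to let-7d (1.02, SE 0.21, limma adjusted p = 0.0114). let-7e (0.99, limma adjusted p = 0.0328) stayed just under a 2-fold change, and let-7b (0.64, SE 0.30, limma adjusted p = 0.121) did not pass. With an adjusted p under 0.05 and a fold change above 2, the count was again 7 members, against 34.8% of all miRNAs. The median over the members was 1.28, beside 1.00 over all 376 miRNAs.

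The size of this difference depended on the reference. Raw Ct of the reference RNAs averaged 21.2 ± 0.14 in the controls labelled day 1 and 22.1 ± 0.26 in those labelled day 30, while the mean Ct of the members was 19.9 ± 0.22 and 19.4 ± 0.34. With an array's median Ct as the reference no member was a DEM between the labels in limma (5.05% of all miRNAs), and with raw Ct none was either (5.05%), with medians over the members of 0.37 and 0.39. Of the 17 cell type markers, 7 were DEMs between the labels, all higher at day 30: the 3 hepatocyte miRNAs, both arms of miR-126 of endothelium, and miR-223 and miR-150 of leukocytes. The other 3 leukocyte markers were not called, with miR-142-5p at -0.46. The mean -ΔCt of the 3 hepatocyte miRNAs was 4.53 to 5.25 with day 1 on the label and 6.26 to 6.53 with day 30, and the part of these markers in the result was not tested. The day on the label and the run period cannot be told apart here. In such bulk samples, fewer cells of a type and less RNA per cell cannot be told apart either.

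**Figure D2:**
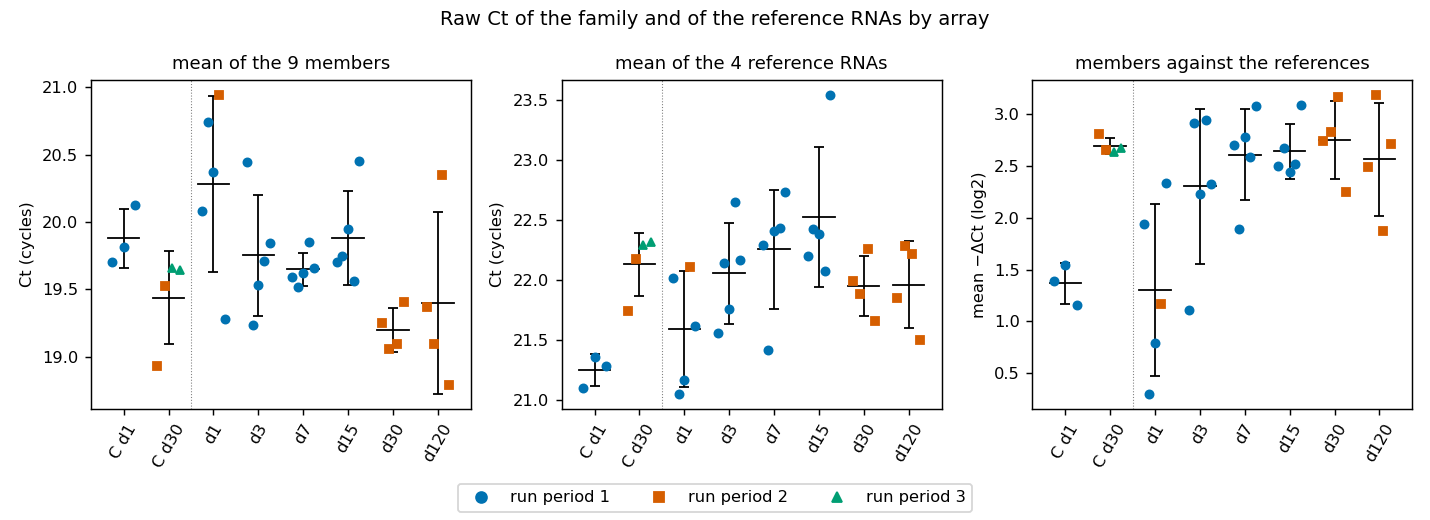
Mean Ct of the 9 members, mean Ct of the 4 reference RNAs, and their difference (-ΔCt of the family mean) in every array, by group and run period, with group mean and SD. The controls labelled day 1 have the lowest mean Ct of the reference RNAs of the 8 groups, at 21.2 cycles, and PTD 15 has the highest, at 22.5 cycles.

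Set against the 7 controls together, let-7b at PTD 15 was the only DEM among the members in limma over the 6 days. At PTD 15 let-7b measured 3.51, 3.62, 3.79, 3.42 and 4.56, and in the controls 2.31, 2.26, 2.51, 3.65, 2.70, 2.62 and 3.03. A single control, replicate 1 labelled day 30, reached into the range of PTD 15. The log2 fold change was 1.06 (SE 0.31), a 2.08-fold rise, with a limma p of 0.00492, an adjusted p of 0.0421 and an exact permutation p of 0.00758. Among all miRNAs 6.65% were DEMs in that direction at PTD 15, and 5.85% with an adjusted p under 0.05 and a fold change above 2, where let-7b was again the only member.

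The call of let-7b stood close to its threshold. Leaving out PTD 15 replicate 3 or 5, or control replicate 1 or 2 labelled day 1, gave a limma p from 0.0102 to 0.0153 and ended it. The log2 fold change was then 1.05 and 0.86 without these arrays of PTD 15, and 0.99 and 0.98 without these controls. It also ended with the replicate block (log2 fold change 0.85), with the controls labelled day 30 alone (0.78) and without U6 as a reference (0.87). Without snoRNA202 as a reference (1.10) and in 1 fit of all 7 groups (1.06) the log2 fold change was as large, and the call ended because p passed 0.01. With raw Ct the log2 fold change was 0.28 and let-7b was not called. Beside it, the erythroid markers miR-451 and miR-144 were DEMs at PTD 15, higher by 1.04 and 1.52 on the log2 scale. The mean -ΔCt of this pair was -1.04 to -0.09 at PTD 15 and -2.26 to -1.15 in the controls, without overlap, and its part in the result was not tested.

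let-7c, let-7a and let-7i had the next largest differences at PTD 15. let-7c, which differs from let-7b by 1 base, measured 3.72, 3.86, 3.88, 3.68 and 4.53, against 2.21 to 3.77 in the controls (log2 fold change 0.92, SE 0.36, limma adjusted p = 0.104). let-7a gave 0.83 (SE 0.40, limma adjusted p = 0.18) and let-7i 0.73 (SE 0.33, limma adjusted p = 0.161). The members nearest to no difference were let-7f (-0.01, SE 0.52), let-7g (0.08, SE 0.55) and let-7e (0.19, SE 0.33). In all, 3 members had a limma p under 0.05, against 29.0% of all miRNAs.

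At PTD 7 let-7b again had the largest difference of the members. It measured 3.58, 3.16, 3.87, 3.68 and 4.01, overlapping the highest control alone. Its log2 fold change of 0.94 (SE 0.30) was a 1.92-fold difference, under the fold required, with a limma p of 0.00755, an adjusted p of 0.0758 and an exact permutation p of 0.00758. let-7c (0.78), let-7a (0.73) and let-7i (0.65) followed it, with limma adjusted p from 0.25 to 0.255, and miR-98 was at -0.08 (SE 0.44). No member was a DEM by limma, by the methods' t-test or by the exact permutation test, where 9.84% of all miRNAs were DEMs in limma. Without PTD 7 replicate 2, or without control replicate 1 labelled day 30, let-7b became a DEM. A limma p under 0.05 was found for 1 member and for 24.5% of all miRNAs.

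The other days gave no DEM among the members by the same 3 tests. At PTD 1 all 9 members lay below the control mean, by -1.12 for let-7g to -0.51 for let-7b on the log2 scale, with limma adjusted p from 0.669 to 0.707. Their median was -0.84, beside -0.37 over all miRNAs, of which 1.33% were DEMs and 5.05% had a limma p under 0.05, against 0 of the 9 members. At PTD 3 the members ran from -0.28 (let-7e) to 0.54 (let-7i), with 2.13% of all miRNAs DEMs and 10.4% at a limma p under 0.05, none of them a member. At PTD 30 they ran from 0.40 (let-7b) to 0.85 (miR-98), with 1.60% DEMs. let-7e alone had a limma p under 0.05 there (0.83, SE 0.38, limma adjusted p = 0.435), against 10.6% of all miRNAs. At PTD 120 they ran from 0.05 (let-7b) to 0.80 (miR-98), with 1.33% DEMs and 8.78% at a limma p under 0.05, again no member. Of the cell type markers, miR-150 of leukocytes was lower by -1.72 at PTD 1 and miR-142-3p higher by 1.35 at PTD 120, both DEMs, and their part was not tested. None of the 17 markers was a DEM in limma at PTD 3, 7 or 30. The medians of 0.57 at PTD 30 and 0.45 at PTD 120 lay near those of all miRNAs, 0.54 and 0.46.

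**Figure D3:**
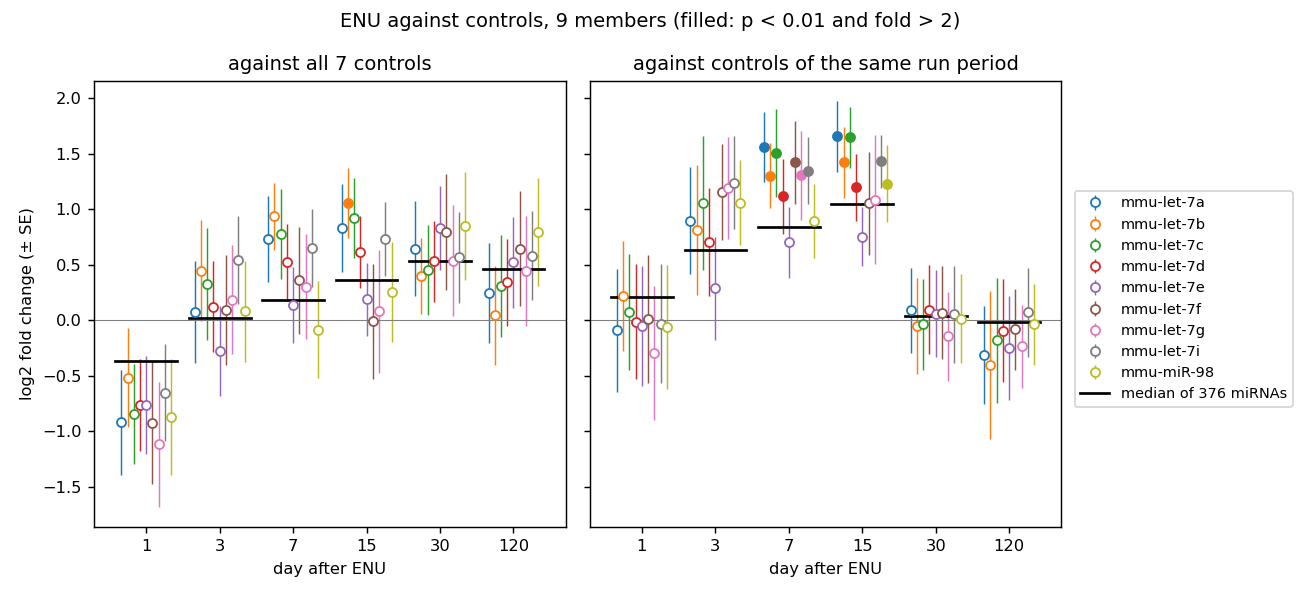
Log2 fold change with SE of each member at each day after ENU, against all 7 controls (left) and against controls of the same run period (right); filled points are DEMs and the black line is the median of the 376 miRNAs. On the left let-7b at PTD 15 is the filled point; on the right 7 members are filled at PTD 7 and 6 at PTD 15, and the black line is at 0.84 for PTD 7 and 1.05 for PTD 15.

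When each ENU day was set against the controls run in its own period, most members rose at PTDs 7 and 15. The RT difference was lower in every control of period 1 than in any array of PTD 7 or 15. An array's median Ct was 28.8 to 29.2 in those controls, 29.5 to 30.0 at PTD 7 and 29.3 to 30.3 at PTD 15. These shifts inside period 1 and the day after ENU cannot be told apart here, and their part was not tested. At PTD 7, let-7a, let-7b, let-7c, let-7d, let-7f, let-7g and let-7i were DEMs, all higher, against 26.9% of all miRNAs in that direction. let-7a measured 3.60, 2.98, 3.59, 3.56 and 4.05 there, all above the 1.95, 2.25 and 1.78 of the controls labelled day 1 (log2 fold change 1.56, SE 0.32, limma adjusted p = 0.00625). The median over the members was 1.31, beside 0.84 over all miRNAs. miR-98 (0.90, limma adjusted p = 0.0455) and let-7e (0.70, limma adjusted p = 0.0886) reached neither a 2-fold change nor the p required.

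At PTD 15, let-7a, let-7b, let-7c, let-7d, let-7i and miR-98 were DEMs against the same 3 controls, all higher, against 35.6% of all miRNAs. let-7i measured 0.84, 0.79, 1.10, 0.91 and 1.03, with -0.24, -0.58 and -0.66 in those controls (log2 fold change 1.43, SE 0.24, limma adjusted p = 0.00413). let-7c gave 1.65 (SE 0.28, limma adjusted p = 0.00413). The median over the members was 1.23, beside 1.05 over all miRNAs. let-7e (0.75, SE 0.27) stayed under a 2-fold change and did not pass. let-7f (1.05, SE 0.47) and let-7g (1.09, SE 0.58) did not pass, and each had 1 low well: let-7f was 3.16 in replicate 5 and 4.53 to 5.04 in the other 4, and let-7g was 1.37 in replicate 3 and 3.29 to 4.23 in the others.

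Some cell type markers were also higher than in the controls labelled day 1. Without overlap were the mean -ΔCt of the erythroid pair (-1.46 to -0.62 at PTD 7 and -1.04 to -0.09 at PTD 15, against -2.26 to -1.54) and of the stromal pair (-4.26 to -3.36 and -3.90 to -3.30, against -5.01 to -4.53). The hepatocyte markers stood apart at PTD 7 (5.26 to 6.55, against 4.53 to 5.25) and overlapped at PTD 15, and the endothelial pair stood apart at PTD 15 (3.44 to 4.57, against 1.89 to 2.79) and overlapped at PTD 7. The leukocyte and cholangiocyte markers overlapped on both days, and the part of all these markers in the result was not tested.

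The counts of members depended on the reference. Within run period 1 and with raw Ct, no member was a DEM in limma at PTD 7 (22.1% of all miRNAs were) or at PTD 15 (20.2%), with medians over the members of 0.30 and -0.05. With an array's median Ct as the reference, 6 members were DEMs at PTD 7 (29.8% of all miRNAs) and 2, let-7a and let-7c, at PTD 15 (22.3%). The mean Ct of the reference RNAs rose from 21.2 in the controls labelled day 1 to 22.3 ± 0.50 at PTD 7 and 22.5 ± 0.59 at PTD 15, while that of the members was 19.9, 19.6 ± 0.12 and 19.9 ± 0.35.

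On the remaining days no member was a DEM in limma by this comparison. It had only 2 controls for PTDs 30 and 120, and 4 ENU arrays for PTD 1, so smaller differences could be missed. At PTD 1 the median over the members was -0.03, with 1.06% of all miRNAs DEMs. PTD 3 gave a median of 1.06, with 7.98% of all miRNAs DEMs, and a wide spread between arrays, from 0.12 to 1.90 for let-7e and from 1.45 to 4.19 for let-7c. For PTD 30 the median was 0.05 with 0.798% of all miRNAs DEMs, and for PTD 120 it was -0.18 with 0%. Crossing the periods gave calls on some days. Against the controls labelled day 1 alone, 8 members were higher at PTD 30 (37.5% of all miRNAs) and 4 at PTD 120 (27.9%). Against those labelled day 30 alone 4 members were lower at PTD 1 (12.5%). No member was called against the latter at PTD 3, 7 or 15, where 23, 38 and 34 of the 376 miRNAs were.

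Comparisons among the ENU days use no control array, and the 3 that start from PTD 1 share its 5 arrays. From PTD 1 to PTD 7, let-7a, let-7b, let-7c, let-7d and let-7i rose and were DEMs, against 10.6% of all miRNAs in that direction. let-7a measured 2.58, 0.85, 1.21, 1.88 and 2.97 at PTD 1, all below the 2.98 to 4.05 of PTD 7 (log2 difference 1.65, SE 0.44, limma adjusted p = 0.0199, exact permutation p = 0.00794). It was the only member with no overlap, where 7.18% of all miRNAs had none. With an adjusted p under 0.05 and a fold change above 2 the members were let-7a and let-7c, against 7.71% of all miRNAs. By the methods' t-test let-7a was the only DEM among the members, against 6.91% of all miRNAs higher. Within run period 1 the DEMs were let-7a, let-7g and let-7i, all higher, against 12.8% of all miRNAs in that direction. The RT difference and the median Ct of an array were both lower in every PTD 1 array of that period than in any of PTD 7. These shifts and the day after ENU cannot be told apart here, and their part was not tested. The count fell from 5 to 2 without PTD 7 replicate 1, 3 or 4 or PTD 1 replicate 3, to 1 (let-7a) without PTD 7 replicate 5 or PTD 1 replicate 2, and to 3 without PTD 1 replicate 4.

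From PTD 1 to PTD 15 the same 5 members, let-7a, let-7b, let-7c, let-7d and let-7i, were DEMs, against 19.4% of all miRNAs. let-7c measured 2.83, 1.38, 1.91, 1.41 and 3.34 at PTD 1 and 3.68 to 4.53 at PTD 15 (1.76, SE 0.44, limma adjusted p = 0.018). All 5 also passed with an adjusted p under 0.05 and a fold change above 2, against 29.3% of all miRNAs. let-7a, let-7c, let-7d, let-7i and miR-98 had no overlap between the days, where 21.8% of all miRNAs had none. Within run period 1 the DEMs were let-7a, let-7c and let-7i, all higher, against 18.9% of all miRNAs in that direction. In that period the PTD 1 arrays also all lay below those of PTD 15 in RT difference and in the median Ct of an array. The part of these shifts was not tested, and they cannot be told apart from the day after ENU here. With raw Ct no member was a DEM in limma from PTD 1 to PTD 7, against 14.4% of all miRNAs, or to PTD 15, against 12.8%. The count fell to 3 without PTD 15 replicate 1, 2, 3 or 5 or PTD 1 replicate 2 or 4, and to 2 (let-7a and let-7c) without PTD 1 replicate 3. The leukocyte marker miR-150 rose from PTD 1 by 1.89 at PTD 7 and by 1.96 at PTD 15, and miR-155 and the endothelial marker miR-126-3p were also DEMs at PTD 15. The leukocyte marker miR-142-5p was at -0.65 and -0.44 in these steps and was not called, and the part of these markers was not tested.

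The remaining steps gave no DEM in limma. From PTD 1 to PTD 3 the members were higher by 0.49 (let-7e) to 1.30 (let-7g), with 2 members and 14.9% of all miRNAs at a limma p under 0.05, and 2.93% of all miRNAs DEMs. The marker miR-150 was a DEM in this step too, higher by 1.51, and its part was not tested. Without PTD 3 replicate 1 let-7c was a DEM in this step, and without PTD 1 replicate 5 let-7i was. From PTD 30 to PTD 120 they moved by -0.40 (let-7a) to 0.02 (let-7i), with 0 members and 3.46% of all miRNAs at a limma p under 0.05, and 0.798% of all miRNAs DEMs.

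With the controls as 1 group, the order of the 7 groups had the same lower end for every member. PTD 1 had the lowest mean for 9 of 9 members. PTD 15 had the highest mean for 5 members and PTD 30 for the other 4. Between neighbours in these orders none of 54 exact permutation tests gave a p under 0.05, the smallest being 0.0859, so no single step passed. Without PTD 1 replicate 5 the count was 3, and without PTD 1 replicate 1 or PTD 15 replicate 5 it was 1.

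Within the family, the balance between members could be read without any reference RNA, as the distance of each member from the mean of the 9 in its array. On this scale a member was called at p under 0.01 in limma with any fold change. Against the 7 controls at PTD 7, miR-98 lay lower in the family by 0.57 (SE 0.18, limma adjusted p = 0.0487), against 17.3% of all miRNAs lower by the same rule. The call was lost with the replicate block, and without any array of PTD 7, any control labelled day 30 or control replicate 2 labelled day 1. The difference itself was larger without PTD 7 replicate 1, 2, 3 or 4 or that control labelled day 1. It was smaller without PTD 7 replicate 5 or any control labelled day 30. With the controls of run period 1 alone miR-98 gave -0.35 and was not called, and let-7e was the member called there, at -0.54 (SE 0.15, limma adjusted p = 0.0232), against 27.1% of all miRNAs lower. With the controls labelled day 30 alone miR-98 (-0.73, limma adjusted p = 0.0278) and let-7b (0.75, limma adjusted p = 0.0486) were called, against 15.4% of all miRNAs in either direction. On the other 5 days no member was called within the family against the 7 controls by limma.

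let-7f and let-7b had the least related levels of any pair. Their Pearson correlation over the 35 arrays was 0.45, the lowest of the 36 pairs, while let-7c and let-7d had 0.97 and the median pair 0.80. The median was 0.88 over the 4 pairs differing by 1 base, 0.80 over the 10 differing by 2, 0.74 over the 11 differing by 3 and 0.81 over the 9 differing by 4, while the single pairs differing by 5 and 6 bases had 0.76 and 0.87, so the values did not fall steadily with the number of differing bases. Neighbours in the genome did not form the closest pairs throughout: let-7b and let-7c had 0.93, let-7a and let-7d 0.96, let-7a and let-7f 0.75, and let-7f and miR-98 0.83. All pairs share their reference RNAs within an array. With the mean of the 9 members subtracted, which cancels the reference RNAs but also forces the members to balance each other, the values ran from -0.80 for let-7c and miR-98 to 0.80 for let-7b and let-7c, with let-7f and let-7b at -0.67.

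The difference let-7f minus let-7b in an array, chosen after its values were seen, is given by run period as a description. Run period and sampling day largely coincide and cannot be told apart here. In run period 1 it was 0.44 to 1.61 in the controls, 0.44 to 1.40 at PTD 1, 0.98 to 2.26 at PTD 3, 0.86 to 1.39 at PTD 7 and -1.40 to 1.42 at PTD 15. In run periods 2 and 3 it was 1.61 to 2.78 in the controls, 3.37 in the array of PTD 1, 1.84 to 2.47 at PTD 30 and 1.84 to 3.46 at PTD 120. The median was 1.20 over the 22 arrays of run period 1 and 2.25 over the 13 later ones. The highest value of each of PTDs 1, 3 and 120 came from the array with a low snoRNA202 Ct, and the lowest of all from the low well of let-7f at PTD 15.

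**Figure D4:**
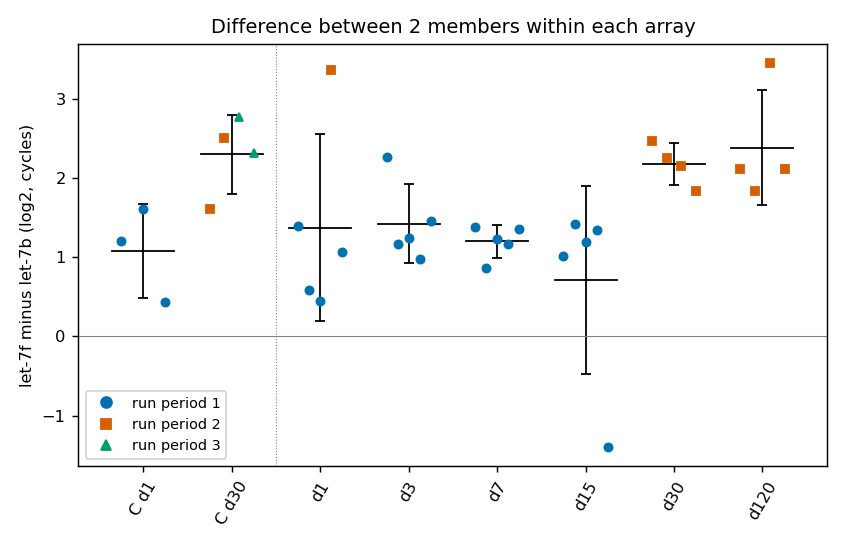
Difference in level between let-7f and let-7b within each array (log2 scale, so the reference RNAs cancel), by group and run period, with group mean and SD. Controls and ENU arrays of run period 1 centre on 1.20 and those of run periods 2 and 3 on 2.25, and the point at -1.40 is PTD 15 replicate 5.

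In the 3 arrays with a low snoRNA202 Ct the members split. let-7b stood at -0.43, 0.27 and -0.50 from the family mean, against a mean of 0.84 ± 0.42 (SD) in the other 32 arrays, and let-7c at 0.24, 0.34 and 0.28, against 1.04 ± 0.24. miR-98 stood at -2.57, -2.82 and -2.59, against -3.48 ± 0.32, and let-7g at 1.51, 1.07 and 1.47, against 0.74 ± 0.42. let-7i stood at -1.30, -1.30 and -1.50, against -1.82 ± 0.24, let-7f at 2.94, 2.53 and 2.95, against 2.26 ± 0.46, and let-7d at 0.17, 0.44 and 0.38, against 0.65 ± 0.15. Only let-7c and miR-98 lay outside the range of the other 32 arrays in all 3 arrays, and only let-7a and let-7e lay inside it in all 3.

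Relatives of the family were compared with it by level and by position. The miRNAs whose -ΔCt correlated best with the mean of the 9 members, of 352 others measured in every array, were miR-27a (0.95), miR-532-5p (0.95), miR-15b (0.95), miR-152 (0.93) and miR-17 (0.93). The neighbours of let-7 genes ranked lower, with 0.90 for miR-99a, 0.83 for miR-100, 0.81 for miR-125b-5p, 0.73 for miR-99b and 0.72 for miR-125a-5p. The median over the 352 was 0.52, and all values share the reference RNAs. With an array's median Ct as the reference the first 5 had 0.84 to 0.91, and the neighbours had 0.81, 0.64, 0.63, 0.49 and 0.45 in the order given. None of these 5 neighbours was a DEM in limma against the 7 controls on any of the 6 days, and at PTD 15 they ran from 0.08 (miR-100) to 0.54 (miR-99a). Between the control labels, miR-99a (1.37) and miR-100 (1.47) were DEMs, both higher at day 30.

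The array also held 3 miRNAs with a seed close to that of let-7, shown with bases 2 to 8 in capitals.

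mmu-miR-202-3p: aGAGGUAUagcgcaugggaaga
mmu-miR-196a: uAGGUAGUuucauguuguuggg
mmu-miR-196b: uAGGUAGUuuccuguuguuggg

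They were scarce in these livers, with mean Ct values of 32.3, 31.7 and 31.3, and none was a DEM in limma against the 7 controls on any day. At PTD 15 miR-196a was at -1.02 (SE 0.40, limma adjusted p = 0.102), while miR-202-3p was at 0.50 (SE 0.72). From PTD 1 to PTD 7 miR-202-3p rose by 1.71 (SE 0.50, limma adjusted p = 0.0336) and was a DEM.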

How the data were processed

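Per the labels and the study's methods, small RNA under 200 nucleotides was reverse-transcribed and amplified with SYBR Green for 40 cycles. The authors deposited the Ct of every well, set at a fluorescence threshold of 0.15 and not normalized. Wells were named by the study's well list. Wells with no Ct were treated as missing.

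-ΔCt was computed against the mean of the 4 reference RNAs, and each comparison was fitted over all 376 miRNAs in limma 3.58.1 (R 4.3.3) without covariates, with Benjamini-Hochberg adjustment. The 7 controls formed 1 group, as in the study, whose test was a t-test. Single steps in an order were tested by exact permutation (Python 3.11.15). The fits were first tested on simulated data. The members, gene lists and tests were chosen with earlier results of these data known. All 9 members are named; the most alike miRNAs are the 5 with the highest correlation with the family mean. Replicate numbers did not pair samples: same-numbered samples' deviations correlated between -0.35 and 0.47. Samples are separate mice, and 1 array per mouse leaves technical spread unmeasured. No pair of arrays was near identical (smallest SD of Ct differences 0.67 cycles). Alternatives were other references, tests, filters, controls and run periods, and leaving out each array.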

Additional observations from a re-analysis of the deposited data

Results flagged for a closer look

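Of 70 sets of values examined, 9 members and their mean in 7 groups, 7 held an array whose gap to its nearest neighbour, from 0.73 to 0.96 of the group's range, passed the limit of Dixon's outlier test for that group size, and chance alone gives about 1 in 20. Replicate 5 of PTD 15 was such an array for 5 members: let-7f at 3.16 was far below the other 4 arrays, while let-7a at 4.42, let-7c at 4.53, let-7d at 4.06 and miR-98 at -0.11 were far above them. It had the highest mean Ct of the reference RNAs of the 35 arrays, 23.5. At PTD 3, let-7c at 1.45 in replicate 1 lay below 3.45 to 4.19 in the others, and this array has a low snoRNA202 Ct. At PTD 120, let-7g at 4.01 in replicate 2 lay above 3.32 to 3.34.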

How the results depend on the processing

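let-7b at PTD 15 stayed higher under every alternative run, from 0.14 to 1.42 on the log2 scale. Members called only with other controls could turn. Of those called at PTD 15 within the run period, let-7d gave -0.08 and miR-98 -0.05 there with raw Ct. Against all controls with raw Ct let-7i gave -0.04, and let-7d and miR-98 were lower by more than within the run period. The mean -ΔCt of miR-98 was -0.96 at PTD 15, also below the -0.48 of the controls labelled day 30. Of those called at PTD 7, let-7f and let-7g gave -0.44 and -0.45 against the controls labelled day 30 alone. At PTD 1 let-7f, called lower (-1.72) against those controls, gave 0.01 within the run period. Medians over the members, which carry no test, also turned. From PTD 30 to PTD 120 the median turned from -0.15 to 0.05 without the arrays with low snoRNA202. At PTD 15 the median turned from 0.61 to -0.16 with raw Ct, and to -0.05 within the run period as well. At PTD 120 it turned from 0.45 to between -0.18 and -0.15 with the controls labelled day 30 alone or those of the run period. At PTD 3 it turned from 0.12 to -0.55 with the controls labelled day 30 alone, to -0.18 with raw Ct, to -0.05 without snoRNA142, and to -0.02 or -0.06 without PTD 3 replicate 4 or control replicate 3 labelled day 1. Of the recomputed counts, apart from those that left out a single array, 187 stayed within 1.5 times the reported count. The other 47, counts of members called unless named, follow, with the count over all 376 miRNAs in either direction in brackets. At PTDs 7 and 15 the controls labelled day 1 are also those of the run period. There both settings and the run period block gave the same differences, so they are not separate checks. With the median Ct of the array as reference the count was 3 at PTD 7 (68), 0 between the control labels (19) and 1 step in the order of days. With no normalization (raw Ct, chosen after seeing the data) it was 0 at PTD 15 (62) and between the control labels (19). It was also 0 from PTD 1 to PTD 7 (54) and to PTD 15 (48). Against the controls labelled day 30 alone it was 4, all lower, at PTD 1 (49) and 0 at PTD 15 (34). Within the family it was 2 at PTD 7 (58) and 1 at PTD 15 against these controls. Against those labelled day 1 alone the counts were 8 at PTD 30, 7 at PTD 7, 6 at PTD 15 and, for PTD 120, 4, where 141, 124, 152 and 105 of the 376 miRNAs were called. Either label alone left 0 steps in the order of members, since so few arrays cannot pass. With a run period block it was 2 at PTD 3 (50), 7 at PTD 7 (143) and 6 at PTD 15 (160). Within the run period alone it was 7 at PTD 7 (124) and 6 at PTD 15 (152). From PTD 1 it was 3 to PTD 7 (81) and 3 to PTD 15 (100) there. With no normalization as well it was 0 at PTD 15 (76) and from PTD 1 to PTD 7 (92) and to PTD 15 (75). With the median Ct as well it was 6 at PTD 7 (112) and 2 at PTD 15 (84). From PTD 1 it was then 3 to PTD 3 (52) and 8 to PTD 7 (151). Both of these were added after seeing the data. Without snoRNA251 as reference it was 2 at PTD 15 (61) and 3 from PTD 1 to PTD 7 (65). Without snoRNA202 it was 0 at PTD 15 (38), 3 from PTD 1 to PTD 7 (48) and 3 to PTD 15 (48). Without U6 it was 0 at PTD 15 (43) and 3 from PTD 1 to PTD 15 (77). In 1 fit of all 7 groups it was 0 at PTD 15 (50) and 1 from PTD 1 to PTD 3 (23). From PTD 1 to PTD 7 the methods' t-test gave 1 (43), an adjusted p 2 (50) and the exact permutation test, run on the members only, 1. Without the arrays with low snoRNA202, chosen after seeing the data, 3 were called from PTD 1 to PTD 7 (81) and 3 to PTD 15 (100). With the replicate block it was 0 at PTD 15 (27) and 0 within the family at PTD 7. Its numbers did not pair the samples: 1 of 28 pairs of groups had every correlation over 0.1. For 4 against 3 or 4 against 4 arrays the exact p cannot fall under 0.01, so that test gave no count there. The causes were not tested.

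Leaving out each array in turn gave 0 to 1 members at PTD 7, PTD 15, from PTD 1 to PTD 3 and within the family at PTD 7, 6 to 7 between the control labels, 1 to 7 from PTD 1 to PTD 7, 2 to 6 from PTD 1 to PTD 15, 0 to 3 steps in the order of days, 4 in the order of members, and 0 elsewhere. The medians over the members ran from -1.06 to -0.56 at PTD 1, -0.06 to 0.45 at PTD 3, 0.40 to 0.72 at PTD 7, 0.44 to 0.70 at PTD 15, 0.41 to 0.79 at PTD 30 and 0.22 to 0.70 at PTD 120. The number of arrays limits the precision.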
